A study of Mus musculus with 4 samples.

Results

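The conventional regulatory T cell program was followed through 9 genes (Foxp3, Ikzf2, Ikzf4, Nrp1, Lrrc32, Ebi3, Capg, Gpr83 and Izumo1r) out of 35275 in the deposited table. They were chosen by name as genes known from Foxp3-positive regulatory T cells, and all 9 were in the table. The cells were mouse double-negative regulatory T cells (DNT), which suppress immune responses although they carry an αβ T cell receptor without CD4 or CD8. RNA was sequenced from 4 libraries, all on the C57BL/6 strain: wild-type 1 and 2, and OX40-knockout 1 and 2, the latter from mice lacking OX40. OX40, the product of Tnfrsf4, gives activated T cells a costimulatory signal. In both groups the DNT had been converted in culture from naive CD4 T cells and then purified by flow cytometry as cells with CD3 and TCRαβ and without NK markers, CD4 or CD8. Age, number of mice, pooling and the part of Tnfrsf4 that was removed are not stated in the labels. Nothing says that libraries of 1 group are separate cultures. P-values here thus rest on a spread between libraries that may be technical.

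Conventional regulatory T cells depend on the transcription factor Foxp3, and a set of genes commonly marks them along with it. Helios (Ikzf2) and Eos (Ikzf4) are zinc finger proteins of the Ikaros family that act beside Foxp3, GARP (Lrrc32) holds latent TGF-beta on the cell surface, and neuropilin-1 (Nrp1) binds semaphorins and VEGF. Ebi3 is a subunit of IL-27 and IL-35, Capg is an actin filament capping protein, Gpr83 is a G protein-coupled receptor enriched in these cells, and Izumo1r (folate receptor 4) is a surface protein used to sort them.

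Values are RPKM, reads scaled for transcript length and library size, and the whole reads behind them were recovered from the table. Library totals lay between 22220888 and 24395743 reads. The T cell label was borne out by 9 of 10 marker genes at 10 RPKM or more in every library. The tenth, Cd5, an inhibitory receptor of T cells, lay between 1.71 and 8.05 RPKM. Of the markers the sort was set against, Cd4 was between 0.82 and 10.1 RPKM, Cd8a between 9.03 and 16.6 RPKM, and Klrb1c, encoding NK1.1, between 42.8 and 160 RPKM. Tnfrsf4 itself was still read in the libraries labelled OX40-knockout, at 12.1 and 9.38 RPKM, where the wild-type values were 18.2 and 12.3 RPKM. OX40-knockout 1 stood apart from the other libraries on the first principal component, with a score of 34.2 against -18.1, -16 and -0.1. Its values also followed base composition, when the tested genes were cut into 5 equal classes of GC content. The median log2 deviation of OX40-knockout 1 from each gene's mean over the 4 libraries was -0.18 in the lowest and 0.21 in the highest class. The log2 changes of the program's tested genes are therefore given with and without that library.

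The 9 genes divided by level into 3 bands. Capg, Ikzf2, Lrrc32 and Ikzf4 reached at least 10 RPKM in each of the 4 libraries, Izumo1r and Ebi3 lay between, and Nrp1, Foxp3 and Gpr83 stayed below 1 RPKM throughout. Capg never fell short of 261 RPKM, and Gpr83 never exceeded 0.0501 RPKM. Among the 20996 genes above 0 in any library, Capg ranked at percentile 98.6 of the mean level, Ikzf2 at 92.9, Lrrc32 at 83.1 and Ikzf4 at 79.6. Izumo1r was at percentile 56.5, Ebi3 at 49.9, Nrp1 at 40.3, Foxp3 at 26.7 and Gpr83 at 15. The ranges over the 4 libraries overlapped for 2 of the neighbours in this order, Lrrc32 with Ikzf4 and Izumo1r with Ebi3. Lrrc32 was above Ikzf4 in 3 libraries, and Izumo1r was above Ebi3 in 4. No other neighbours overlapped. In bulk RNA, fewer cells of a type and less RNA per cell cannot be told apart, so a level between the bands may be that of all cells or of a few.

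**Figure D1:**
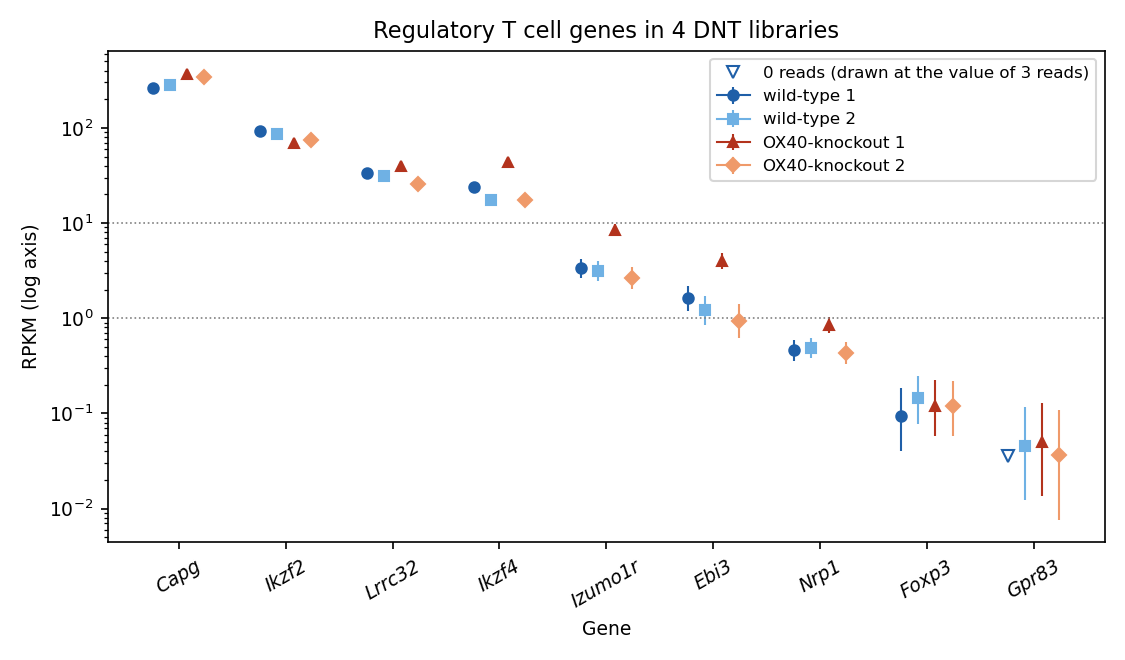
RPKM of the 9 genes on a log axis, 1 point per library with its exact 95% Poisson interval (counting error only), ordered by mean level; dotted lines mark 1 and 10 RPKM. Capg sits at 261 RPKM or above in every library, Foxp3 between 0.093 and 0.144 RPKM, and an open triangle marks Gpr83 in wild-type 1, where no read was found.

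The order of levels depended in part on the transcript length behind the deposited values. For 5 of the 9 genes the implied length was within 1% of the mean length of all annotated transcripts, short fragments included: 2453 bases for Ikzf2, 1883 for Ikzf4, 795 for Capg, 3594 for Gpr83 and 970 for Izumo1r. The longest annotated transcripts of Ikzf2, Ikzf4 and Capg have 9278, 5150 and 1400 bases. Scaled to the longest transcript, Capg was between 148 and 209, Lrrc32 between 21.5 and 33.4, Ikzf2 between 18.5 and 24.6, and Ikzf4 between 6.37 and 16.1. On that scale Lrrc32 was above Ikzf2 in all 4 libraries, the opposite of the order in RPKM, and Ikzf4 left the top band. Foxp3 and Gpr83 stayed below 1 on both scales. Nrp1 left the bottom band, at 0.705 to 1.37 with its longest transcript. That transcript has 3645 bases, fewer than the 5907 bases implied by its RPKM. Ratios of RPKM between libraries within a gene do not depend on this length. The log2 changes given below depend on it in part for low genes, since 1 RPKM is added before the logarithm.

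**Figure D2:**
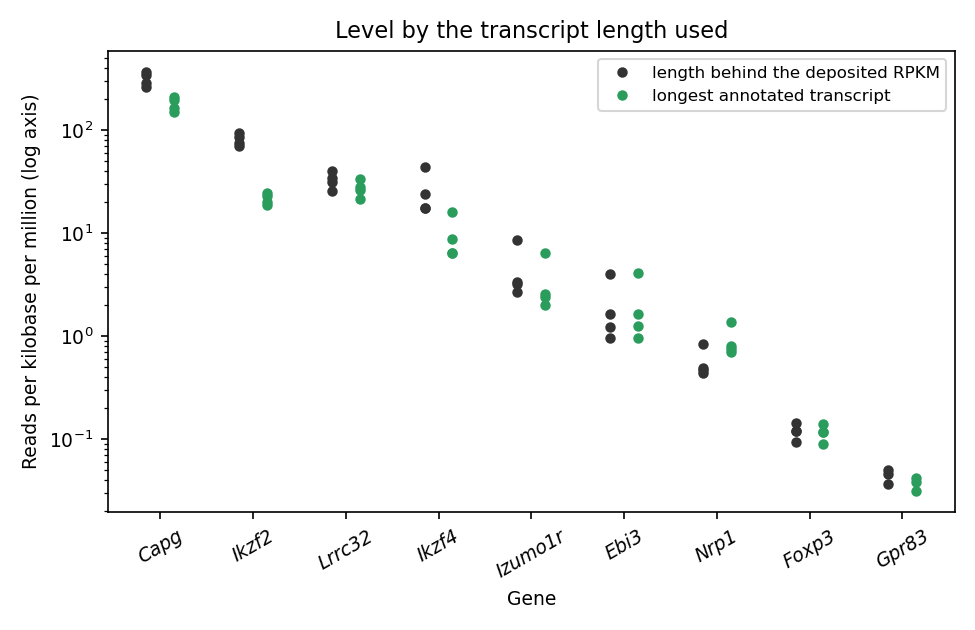
Length-scaled level on a log axis for each gene, 1 point per library, with the length behind the deposited RPKM (black) and with the longest annotated transcript (green); libraries at 0 are not drawn. Ikzf2 lies between 69.8 and 92.9 on the deposited scale and between 18.5 and 24.6 with its longest transcript.

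For 6 of the 9 genes a promoter sequence was at hand from RefSeq (GRCm38.p6, from 250 bases before to 50 after the annotated start, written in the direction of transcription). 5 are printed: that of Foxp3, whose transcript was near the floor, of Capg, the highest gene, of Ebi3 and Izumo1r, which were high together in 1 library, and of Gpr83, the direct neighbour of Izumo1r on chromosome 9. Capitals mark CG dinucleotides, the sites of DNA methylation in mammals. Coordinates are those of GRCm38.p6 and not of the deposited table.
Foxp3, first of 2 starts, chrX:7579426-7579725, plus strand: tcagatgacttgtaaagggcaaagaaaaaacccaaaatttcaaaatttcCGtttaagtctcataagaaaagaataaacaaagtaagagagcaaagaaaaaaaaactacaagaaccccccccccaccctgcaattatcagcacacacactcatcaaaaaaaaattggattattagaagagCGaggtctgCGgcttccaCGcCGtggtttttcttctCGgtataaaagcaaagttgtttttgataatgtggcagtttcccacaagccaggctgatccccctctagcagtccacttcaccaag
Capg, chr6:72549397-72549696, plus strand: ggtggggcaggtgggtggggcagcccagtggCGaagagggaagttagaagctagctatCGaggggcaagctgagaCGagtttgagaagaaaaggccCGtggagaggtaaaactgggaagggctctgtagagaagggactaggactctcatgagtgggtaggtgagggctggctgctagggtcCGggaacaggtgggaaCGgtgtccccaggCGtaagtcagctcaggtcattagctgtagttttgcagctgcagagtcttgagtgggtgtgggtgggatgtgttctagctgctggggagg
Ebi3, chr17:55952373-55952672, plus strand: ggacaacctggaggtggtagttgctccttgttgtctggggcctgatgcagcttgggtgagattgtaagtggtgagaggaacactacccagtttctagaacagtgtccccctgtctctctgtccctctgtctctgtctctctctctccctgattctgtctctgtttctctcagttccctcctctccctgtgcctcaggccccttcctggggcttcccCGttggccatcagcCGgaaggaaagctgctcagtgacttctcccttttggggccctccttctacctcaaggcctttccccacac
Izumo1r, chr9:14903718-14904017, minus strand: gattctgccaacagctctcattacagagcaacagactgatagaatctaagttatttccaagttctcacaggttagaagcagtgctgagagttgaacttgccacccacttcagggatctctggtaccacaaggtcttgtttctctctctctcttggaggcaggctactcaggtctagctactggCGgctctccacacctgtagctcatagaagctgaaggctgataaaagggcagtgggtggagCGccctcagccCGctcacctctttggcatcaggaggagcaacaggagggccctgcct
Gpr83, chr9:14859960-14860259, plus strand: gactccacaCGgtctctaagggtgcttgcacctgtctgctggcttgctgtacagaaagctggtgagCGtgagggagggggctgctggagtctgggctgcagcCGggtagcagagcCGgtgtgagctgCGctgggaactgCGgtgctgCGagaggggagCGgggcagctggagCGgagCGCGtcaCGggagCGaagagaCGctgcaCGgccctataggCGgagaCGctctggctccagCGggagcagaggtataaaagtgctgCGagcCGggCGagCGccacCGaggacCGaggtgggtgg

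The CG count was 6 for this start of Foxp3 and 8 for the other, 7 for Capg, 2 for Ebi3, 3 for Izumo1r, 14 for Nrp1 and 24 for Gpr83, against a median of 7 over 32851 promoters. Gpr83, with the fewest reads of the 9 genes, had more CG than 80% of promoters, and Ebi3 more than 14.1%. Methylation itself was not measured. Motifs were searched on both strands, each on its own, so that matches of different motifs may overlap. TATAAA, the TATA box, was found in the first Foxp3 promoter and in that of Gpr83, and in 13.6% of all promoters. An NF-kB type motif was found once at the first Foxp3 start and at 2 positions in Ebi3 (20.7% of all promoters). TTCNNNGAA, a STAT motif, matched only at the other Foxp3 start (8.3%), and TGTGGT, a RUNX motif, only in Izumo1r (16.8%), among the members with a sequence. TGANTCA (AP-1, 7.81%) and TGTTTAC (forkhead, 3.65%) had no match in these windows. A match is a description of the letters.

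Foxp3 (ENSMUSG00000039521, chromosome X) was read 8 and 13 times in wild-type 1 and 2 and 10 and 10 times in OX40-knockout 1 and 2. Its wild-type values were 0.093 and 0.144 RPKM, and its knockout values 0.121 and 0.12 RPKM. The exact 95% Poisson intervals, which here as elsewhere cover counting error only, ran from 0.0401 to 0.183 RPKM in wild-type 1 and from 0.0766 to 0.246 RPKM in wild-type 2, and those of the knockout libraries, from 0.0582 to 0.223 and from 0.0573 to 0.22 RPKM, overlapped both. No difference in Foxp3 was detectable at this depth. As a floor, 20 genes of other tissues were read in the same libraries, 18 of which were below 1 RPKM throughout. The 2 others were Mbp, a myelin gene, at 28.1 to 44.2 RPKM, and Afp, a fetal liver gene, at 4.68 to 7.64 RPKM. Foxp3 was reached or exceeded by 5, 2, 3 and 2 of the 20 in wild-type 1, wild-type 2, OX40-knockout 1 and OX40-knockout 2. These counts include Mbp and Afp in every library. In wild-type 2 and OX40-knockout 2 no other gene of the 20 reached Foxp3.

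The level of Foxp3 has to be read with its neighbours, since 31.5% of its exonic bases are shared with exons of other annotated genes, Ccdc22, Flicr, Gm36995 and Ppp1r3f. How the counting treated reads that lie in several genes, and whether it used strand, is not stated in the labels. Of these genes, Ccdc22 was listed at 0 in all 4 libraries. Flicr, a long noncoding RNA of the Foxp3 locus, had values of 0.293, 0.259, 0.35 and 0.151 RPKM in wild-type 1 and 2 and OX40-knockout 1 and 2, from 7 to 16 reads. Within the FOXP family, Foxp1, a forkhead factor of naive and memory T cells, stood at 47.5, 52.2, 30.9 and 44.5 RPKM in wild-type 1 and 2 and OX40-knockout 1 and 2. Foxp4 was at 17.4, 18.8, 32.7 and 18.2 RPKM in the same order, and Foxp2 did not exceed 0.0438 RPKM. Foxp3 was thus far below both of the expressed FOXP genes in every library.

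The Ikaros family was read at every member. Ikzf2 (ENSMUSG00000025997, chromosome 1), encoding Helios, had wild-type values of 92.9 and 86.2 RPKM and knockout values of 69.8 and 75.2 RPKM. Both knockout libraries lay below both wild-type libraries. Ikaros itself (Ikzf1), which governs lymphocyte development, was at 137, 143, 133 and 136 RPKM, and Aiolos (Ikzf3) at 45.2, 58.5, 42.3 and 53.4 RPKM, in wild-type 1 and 2 and OX40-knockout 1 and 2. Helios therefore ranked second in the family by RPKM in each library. Ikzf4 (ENSMUSG00000002578, chromosome 10), encoding Eos, had wild-type values of 23.9 and 17.5 RPKM and knockout values of 44 and 17.4 RPKM. Eos was high in OX40-knockout 1, while OX40-knockout 2 was at the level of wild-type 2, so the groups overlapped. Ikzf5 was between 20 and 25.8 RPKM. In 3 of the 5 family genes, Ikzf1, Ikzf2 and Ikzf5, both knockout libraries were below both wild-type libraries, as in 17.8% of all genes tested. The median log2 change of the family was -0.11, against -0.03 over all genes tested.

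Lrrc32 (ENSMUSG00000090958, chromosome 7), encoding GARP, had wild-type values of 33.9 and 31.1 RPKM and knockout values of 40 and 25.8 RPKM. The knockout libraries lay on either side of the wild-type pair. Tgfb1, the cytokine that GARP binds in its latent form, was at 268, 263, 338 and 263 RPKM in wild-type 1 and 2 and OX40-knockout 1 and 2. Nrros, which encodes a GARP-related carrier of latent TGF-beta, was between 59.6 and 65.8 RPKM. Furin, a protease that cleaves the TGF-beta precursor, was between 126 and 257 RPKM, and Itgav, the integrin alpha V chain, between 98.8 and 106 RPKM. Itgb8 and Itgb6, the integrin beta chains that with alpha V release active TGF-beta, were listed at 0 in all libraries. Of 13 genes of this group 7 were tested and none was called. Itgav and Furin were above the wild-type range in each knockout library, and none was below it. Over all genes tested, 8.66% were above and 17.8% below without overlap. The margins were narrow in OX40-knockout 2, with Itgav at 106 RPKM against 105 RPKM in wild-type 1. Furin was at 152 RPKM there against 151 RPKM in wild-type 2, and at 257 RPKM in OX40-knockout 1. The median log2 change of the group was 0.13, against -0.03 over all genes.

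Capg (ENSMUSG00000056737, chromosome 6) had wild-type values of 261 and 285 RPKM and knockout values of 367 and 341 RPKM, with no overlap between groups. Among its relatives in the gelsolin family, which sever or cap actin filaments, Gsn was between 125 and 182 RPKM, Flii between 144 and 163 RPKM and Svil between 18.4 and 19.9 RPKM. Avil differed by replicate number, at 41.3 and 29.3 RPKM in replicates 1 and 110 and 179 RPKM in replicates 2. Scin did too, at 11.5 and 6.56 RPKM in replicates 1 and 22.1 and 35.6 RPKM in replicates 2. Vil1, the intestinal villin, did not exceed 0.255 RPKM. Capg was the highest of the 7 family genes in every library. Among the 6 tested, the genotype groups did not overlap for 1, Capg, against 26.4% of all genes tested.

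Izumo1r (ENSMUSG00000031933, chromosome 9) had wild-type values of 3.37 and 3.17 RPKM and knockout values of 8.54 and 2.65 RPKM, from 58 to 184 reads. OX40-knockout 1 was 2.53 times the highest of the other 3 libraries, and the other knockout library was the lowest of all. The folate receptor genes Folr1 and Folr2 did not exceed 0.0558 and 0.292 RPKM. Gpr83 (ENSMUSG00000031932), next to Izumo1r on chromosome 9, was read 0, 4, 4 and 3 times in wild-type 1 and 2 and OX40-knockout 1 and 2. By the limit of 3 reads the 0 allows up to 0.036 RPKM in wild-type 1, where the exact 95% Poisson interval reaches 0.0442 RPKM. The other 3 libraries were at 0.0456, 0.0501 and 0.037 RPKM. Gpr83 was at or near this limit in every library, so no comparison of the groups is given for it.

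Ebi3 (ENSMUSG00000003206, chromosome 17) had wild-type values of 1.62 and 1.23 RPKM and knockout values of 4.04 and 0.947 RPKM, from 25 to 105 reads. OX40-knockout 1 was 2.49 times the highest of the others. Il12a, which encodes the partner of Ebi3 in IL-35, did not exceed 0.0699 RPKM in any library. Il27, the partner in IL-27, was between 0.477 and 0.882 RPKM. The receptor chains stood higher, with Il12rb1 between 170 and 270 RPKM, Il12rb2 between 63.6 and 79 RPKM, Il27ra between 19.2 and 36.3 RPKM and Il6st between 5.93 and 8.19 RPKM. These DNT thus held RNA of the receptors at higher levels than that of the cytokine subunits in every library. Of Ebi3's exonic bases 23.4% are shared with the gene Gm16712, which was between 0.22 and 0.482 RPKM. Zfp119b also overlaps Ebi3 but is not listed as sharing its exonic bases. It was at 1.35, 0.992, 0.794 and 1.03 RPKM in wild-type 1 and 2 and OX40-knockout 1 and 2.

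Nrp1 (ENSMUSG00000025810, chromosome 8) had wild-type values of 0.467 and 0.493 RPKM and knockout values of 0.846 and 0.435 RPKM, from 58 to 111 reads. The interval of OX40-knockout 1, from 0.696 to 1.02 RPKM, lay above those of the other 3, whose upper ends reached 0.621 RPKM. Its relative Nrp2 did not exceed 0.302 RPKM. Of the semaphorins and other ligands, Sema4d was between 457 and 639 RPKM, Vegfa between 116 and 135 RPKM, and Sema4a, known as a ligand of neuropilin-1 on regulatory T cells, between 79.4 and 149 RPKM. Plexins, the signalling partners of neuropilins, were led by Plxnd1, at 11.1 to 29.3 RPKM. No gene among the 7 tested in this group of 14 had groups that did not overlap, against 26.4% of all genes tested, and its median log2 change was 0.15.

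**Figure D3:**
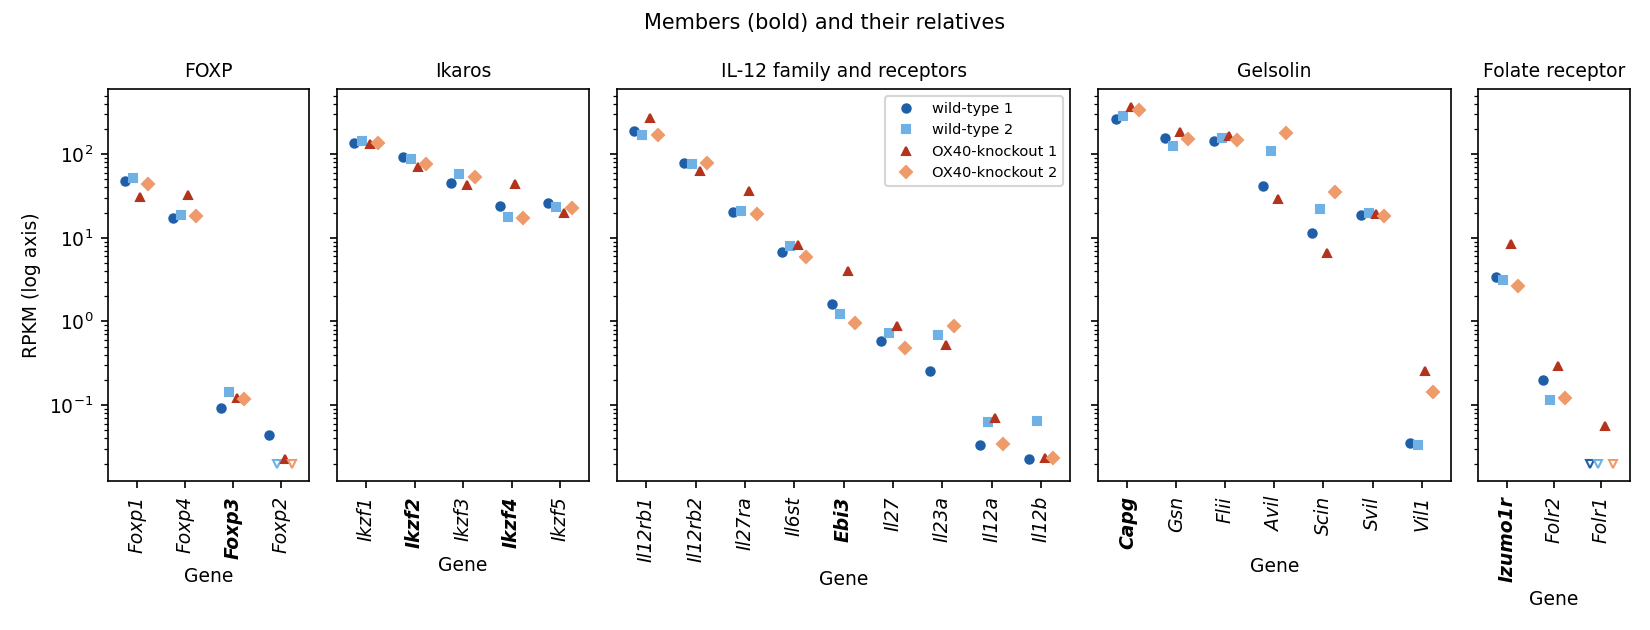
RPKM on a log axis for the FOXP, Ikaros, IL-12, gelsolin and folate receptor families, 1 point per library, with the 9 genes of the program in bold where they occur; open triangles stand for values below 0.02 RPKM. Foxp3 lies below Foxp1 and Foxp4 in every library, and Ikzf2 lies just under Ikzf1.

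The comparison of genotypes asked whether the program differs between DNT of OX40-knockout and wild-type mice. Of the 9 genes, 6 had a mean of at least 1 RPKM and were tested, and Foxp3, Nrp1 and Gpr83 were not. With limma on log2(RPKM + 1), 0 of 11625 genes were called at an adjusted p under 0.05 (0%), which includes the 6 genes here. An unadjusted p under 0.05 was reached by 162 genes (1.39%). That count was 77 without wild-type 1, 76 without wild-type 2, 524 without OX40-knockout 1 and 3832 without OX40-knockout 2. Limma-voom on the recovered reads also called 0 genes, and 130 reached an unadjusted p under 0.05 there. Both Capg and Ikzf2 were among the 162. Groups that did not overlap were found for 2 of the 6 genes, Capg higher and Ikzf2 lower in the knockout, where 26.4% of all tested genes did not overlap (8.66% higher and 17.8% lower). This share is close to the background.

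Capg had a wild-type mean of 273 ± 16.8 RPKM and a knockout mean of 354 ± 18.7 RPKM (SD, n = 2 each), a log2 change of 0.37 with a standard error of 0.11 (limma adjusted p = 0.975). It was higher in the knockout within replicate 1 (0.49) and within replicate 2 (0.26). Ikzf2 had a wild-type mean of 89.5 ± 4.68 RPKM and a knockout mean of 72.5 ± 3.79 RPKM (SD, n = 2 each), a log2 change of -0.3 with a standard error of 0.11 (limma adjusted p = 0.975). It was lower within replicate 1 (-0.41) and within replicate 2 (-0.2). These were the members whose direction was the same whichever library was left out, from 0.31 to 0.44 for Capg and from -0.35 to -0.25 for Ikzf2. Neither passed the test over all genes under any of these settings. Because 1 RPKM is added before the logarithm, the change of low genes is understated.

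For Ikzf4, Izumo1r and Ebi3 the direction hung on OX40-knockout 1. Their log2 changes were 0.42 (SE 0.45), 0.47 (SE 0.47) and 0.37 (SE 0.48) with all 4 libraries, with limma adjusted p of 0.975 for each. Without OX40-knockout 1 they were -0.22, -0.23 and -0.31, and without OX40-knockout 2 they were 1.07, 1.16 and 1.06. In RPKM, the knockout libraries differed from each other more than the group means did, with 30.7 ± 18.8 for Ikzf4, 5.59 ± 4.16 for Izumo1r and 2.49 ± 2.19 for Ebi3 against 20.7 ± 4.56, 3.27 ± 0.145 and 1.42 ± 0.278 in the wild-type (SD, n = 2 each). Lrrc32 had a log2 change of -0.01 (SE 0.23, limma adjusted p = 0.994), with -0.32 without OX40-knockout 1 and 0.29 without OX40-knockout 2.

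**Figure D4:**
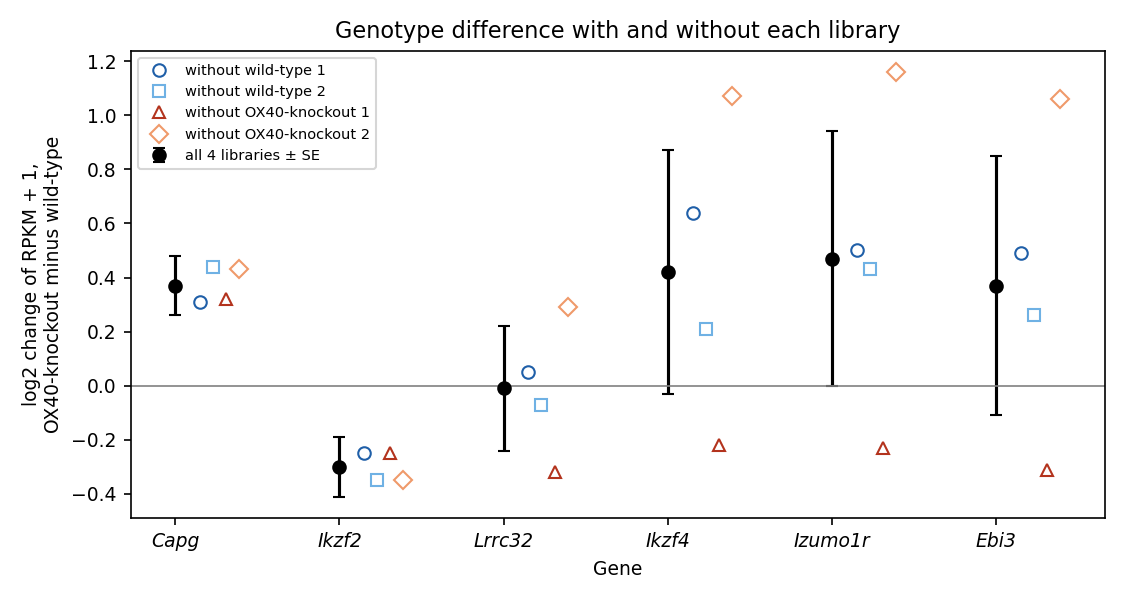
Log2 change of RPKM + 1, OX40-knockout minus wild-type, for the 6 genes tested: black points with standard errors are the fit of all 4 libraries, open symbols the fit without each library. Capg stays above 0 and Ikzf2 below 0, while Ikzf4, Izumo1r and Ebi3 lie below 0 without OX40-knockout 1 and above 1 without OX40-knockout 2.

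OX40-knockout 1 held the highest value of 5 of the 6 genes tested, where it was the highest library for 36.9% of all genes tested. In 3 of the 6, Ikzf4, Izumo1r and Ebi3, it was at least 1.5 times the highest of the other libraries, against 6.06% of all genes tested. GC content moved with this library, and 4 of the 6 genes (Ikzf4, Lrrc32, Ebi3 and Capg) were in the class of highest GC content, with Izumo1r in the class just below it and Ikzf2 in class 2 from the bottom. After the trend on GC content was removed from each library, the log2 deviation of OX40-knockout 1 went from 0.86 to 0.71 for Ikzf4, from 0.93 to 0.81 for Izumo1r and from 0.87 to 0.7 for Ebi3. For Lrrc32 it went from 0.3 to 0.11, below wild-type 1 at 0.16, and for Capg from 0.24 to 0.06. After the correction the order of libraries changed for Capg, with OX40-knockout 2 the highest at 0.21, while both knockout libraries stayed above both wild-type libraries. Ikzf2, low in OX40-knockout 1 at -0.2, was at -0.08 after it.

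**Figure D5:**
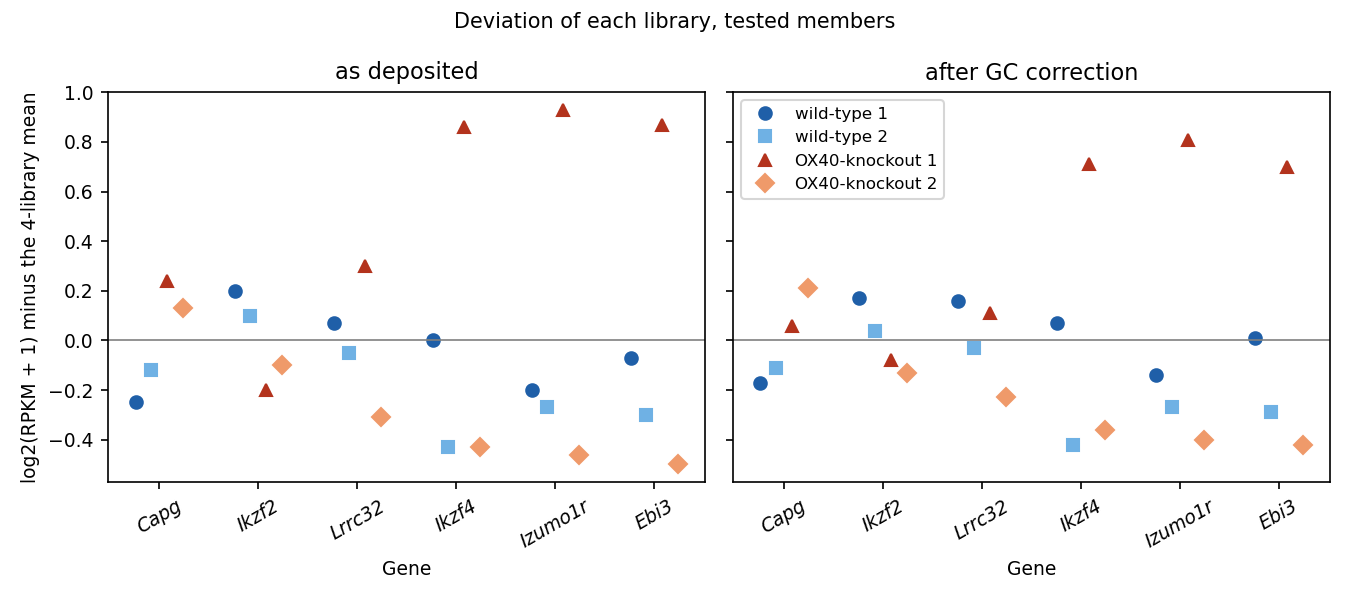
Deviation of each library from the mean of the 4 on the log2(RPKM + 1) scale for the 6 genes tested, as deposited (left) and after removal of the trend on GC content (right). OX40-knockout 1 lies at 0.7 or above for Ikzf4, Izumo1r and Ebi3 in both panels, and at 0.11 for Lrrc32 and 0.06 for Capg after the correction.

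Several of the 9 genes are also known from other cells, whose markers were therefore read. Of 14 dendritic and myeloid markers, Cd209a and Siglech were at 0 throughout, and Flt3 and Clec9a did not exceed 0.0315 and 0.0327 RPKM. Cd68, a lysosomal protein of macrophages, was between 12.9 and 18.9 RPKM and highest in OX40-knockout 1. Lyz2 was between 1.07 and 4.05 RPKM, Itgam between 0.957 and 3.72 RPKM and Itgax between 0.812 and 2.76 RPKM. The sum of the list was 112, 107, 192 and 92 RPKM in wild-type 1 and 2 and OX40-knockout 1 and 2, and most of it was the MHC class II gene H2-Ab1, at 88.7, 69.5, 163 and 65.5 RPKM. Cd74, the class II invariant chain, was at 4, 7.71, 4.76 and 3.38 RPKM. The 6 platelet markers, of interest because platelets carry GARP, summed to 5.01, 29.1, 8.59 and 17.8 RPKM in the same order, and their part in the level of Lrrc32 was not tested. Of 10 endothelial and stromal markers, which accompany Nrp1 and Lrrc32, Cdh5, Emcn, Pdgfra and Col3a1 were at 0, and the sum of 32.2, 77.8, 47.1 and 113 RPKM was mostly Pecam1, which T cells also express. Of 6 B and plasma cell markers, Ms4a1 and Pax5 were at 0 and the sum was 2.62 to 4.85 RPKM. Of 5 markers of gamma delta T cells, 4 were read, led by Tcrg-C1 at 83.5 to 102 RPKM. The remaining marker, Trdc, was not in the deposited table, so its level is unknown. Zbtb16, the factor of innate-like T cells, was at 10.9 RPKM in OX40-knockout 1 and 1.63 to 2.64 RPKM in the others. The part of H2-Ab1, Cd68, Cd4 and Zbtb16, all highest in OX40-knockout 1, in the values of Ikzf4, Izumo1r and Ebi3 was not tested.

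Surface and effector genes of regulatory T cells outside the 9 covered a wide range of levels. No T cells other than DNT were sequenced here, so whether these levels are particular to regulatory cells cannot be told. Of 28 such genes, 14 reached 10 RPKM in every library, 10 lay between, and 4 (Itgb8, Cd83, Plagl1 and Selp) stayed below 1 RPKM. The highest were the costimulatory receptor Tnfrsf9 (4-1BB), between 1100 and 1330 RPKM, then Tgfb1, Il2ra, the ectonucleotidase Entpd1 (CD39), between 167 and 226 RPKM, the secreted suppressor Fgl2, between 136 and 220 RPKM, and the inhibitory receptor Lag3, between 111 and 167 RPKM. Il2ra, the IL-2 receptor alpha chain, was between 208 and 331 RPKM. None of the 23 tested was called, 5 were higher and 1 was lower in the knockout without overlap, and the median log2 change was 0.19. Over all genes tested 26.4% did not overlap, 8.66% higher and 17.8% lower. The share of both directions together is thus at the background, but here the higher genes outnumbered the lower, the reverse of all genes tested. Il2ra, Ctla4, Il10, Swap70 and Lag3 were higher, and Nt5e was lower. OX40-knockout 1 was the highest library for each of the higher genes but Swap70. OX40-knockout 2 and the higher wild-type library were at 260 and 249 RPKM for Il2ra and 144 and 120 RPKM for Ctla4. For Il10 they were at 9.4 and 7.23 RPKM, for Lag3 at 124 and 123 RPKM, and for Swap70 at 28.6 and 26.2 RPKM. Counts and medians of the gene lists were not made without OX40-knockout 1.

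Genes that induce, assist or otherwise regulate Foxp3 were all read, and Foxp3 itself stayed below 1 RPKM in every library. The list takes in Dnmt1 and Uhrf1, genes of DNA methylation, and Satb1, which is also listed among the genes Foxp3 holds down. Of 32 such genes, 27 were at 10 RPKM or more in all libraries. They were led by Runx3, between 305 and 385 RPKM, and Ets1, between 193 and 284 RPKM, factors that bind at the Foxp3 locus, and by Xbp1, between 146 and 189 RPKM. Cbfb, the partner of RUNX proteins, was between 119 and 132 RPKM, Uhrf1, which keeps DNA methylation through replication, between 86.2 and 109 RPKM, and Ctbp1, a corepressor that works with Eos, between 75.7 and 96 RPKM. None was called, 6 were higher and 5 lower without overlap (8.66% and 17.8% of all genes tested), and the median log2 change was 0.1, against -0.03 over all genes.

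Of 9 genes that Foxp3 is known to hold down, Il2 was the exception in level, at 0.271 RPKM or less. The phosphatase gene Ptpn22 was between 186 and 210 RPKM, the phosphodiesterase Pde3b between 63.3 and 80.1 RPKM, the chromatin organizer Satb1 between 40.6 and 83.2 RPKM, and Ifng between 37.3 and 60.5 RPKM. Tnf was between 12.9 and 24.5 RPKM, and Il7r, the IL-7 receptor, between 6.77 and 22.8 RPKM. None of the 8 tested was called, and Ifng alone was without overlap, higher in the knockout, against 26.4% of all genes tested. The median log2 change of the list was 0.37, against -0.03 over all genes. For 6 of the 8 (Il4, Tnf, Satb1, Il7r, Dusp4 and Pde3b) OX40-knockout 1 was the highest library and OX40-knockout 2 did not exceed the wild-type range. Of 9 genes of type 1 regulatory (Tr1) cells, which also lack Foxp3, all were tested and none was called, with a median log2 change of 0.2. Eomes, a T-box factor, was between 75.5 and 150 RPKM, the inhibitory receptor Havcr2 (Tim-3) between 25 and 68.8 RPKM, the adhesion receptor Cd226 between 24.2 and 31.5 RPKM, Prdm1 (Blimp-1) between 14.2 and 21.5 RPKM and the factor Maf between 8.29 and 29.7 RPKM. In 3 of them, Il10, Lag3 and Ahr, both knockout libraries were above both wild-type libraries, as in 8.66% of all genes tested. Il10 and Lag3 were already counted among the surface and effector genes above. All 3 were highest in OX40-knockout 1. In OX40-knockout 2 and wild-type 1, Il10 was at 9.4 and 7.23 RPKM, Lag3 at 124 and 123 RPKM, and Ahr at 8.75 and 8.33 RPKM.

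The genes whose values over the 4 libraries were most like those of each tested member were picked by the root mean square difference of centred log2(RPKM + 1) among 8469 named protein-coding genes. With only 4 libraries many genes share a pattern, so these are descriptions. Capg was closest to Arl2 (0.003, where the SD of Capg over the libraries was 0.23), Hip1 and Dmwd. Ikzf2 was closest to Slc35e2 (0.018, SD 0.18), Gbp7 and Pdlim1, and Lrrc32 to Pde4d (0.013, SD 0.25), Abcg3 and Polm. The 3 genes high in OX40-knockout 1 had neighbours of the same kind: Tesc (0.016, SD 0.61), H2-Ab1 and Gpld1 for Ikzf4, Sema4f (0.04, SD 0.61), H2-Ab1 and Eva1b for Ebi3, and Tiam1 (0.029, SD 0.63), Irf2bp2 and Tent5c for Izumo1r. Tesc, for example, was at 25.3, 18.7, 48 and 18.7 RPKM in wild-type 1 and 2 and OX40-knockout 1 and 2.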

How the data were processed

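The authors deposited 1 table of RPKM values with 4 sample columns. The unit is not named in it and was settled from the values. Per the submitters' processing notes, Bowtie 0.12.2 and build mm8 were used. Neither the notes nor the labels name a counting tool, an annotation or a strand setting. GENCODE vM21, an annotation of GRCm38, named 34490 of 35275 IDs and gave transcript lengths and GC content.

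In single-transcript genes the smallest values were those of 1 read, which gave the library totals. Whole reads were then recovered for 99.6% of the 20996 genes above 0. They came from ratios between libraries (tolerance 0.02 read), with the common factor set by the annotated mean length. Where only 1 library had reads, they came from that length alone. Recovered reads summed to 100.9% to 101.1% of the totals. The factor of some genes may be too high, or reads may have been counted in several genes, and neither was tested. In a self-test the reads were recovered for 99.5% of 1996 genes. Nrp1 and Foxp3 have implied lengths of 5907 and 3706 bases, where their mean transcript lengths are 3218 and 2354. Recovery that far from the mean length was not tested. The implied length was within 1% of the mean transcript length for 60.7% of 18508 genes.

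The tests used limma 3.58.1 (R 4.3.3) on log2(RPKM + 1) with a mean-variance trend and no block. They covered the 11625 genes whose mean reached 1 RPKM, with Benjamini-Hochberg adjustment over all of them and a threshold of 0.05. An exact permutation test has a smallest p of 0.333 in this design and was not used. Alternatives were a pseudocount of 0.1, no filter, trimmed-mean (TMM) factors computed from the RPKM values without weights and without edgeR, quantile normalization, a replicate block, removal of a quadratic trend on GC content, limma-voom on recovered reads, and each library left out. The fits were checked on simulated data. Figures were drawn with matplotlib 3.10.9 under Python 3.11.15, and Poisson intervals came from scipy 1.17.1.

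The members and gene lists were chosen with earlier results of these data known. Named were all members, their paralogs and partners, and of each list at most the 6 genes of highest mean, besides those needed to explain a count. Those singled out beyond this, such as Zbtb16 and Tesc, and the 1.5-fold limit for OX40-knockout 1, were chosen after the values were seen.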

Additional observations from a re-analysis of the deposited data

How the results depend on the processing

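No member passed the threshold under any alternative run. The lowest adjusted p of any member was 0.0557, for Izumo1r without OX40-knockout 2. Leaving out a library leaves 1 in its group, which is then assumed to vary like the other group. Over 13 alternatives 71 of 78 member values kept their direction. The other 7 were Lrrc32 with TMM factors (0.02) and quantile normalization (0.01), and values with 1 library left out. Leaving out each library in turn gave log2 changes from -0.32 to 0.29 for Lrrc32, from -0.22 to 1.07 for Ikzf4, from -0.31 to 1.06 for Ebi3 and from -0.23 to 1.16 for Izumo1r.

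The count of genes called over the whole table, 0 in the main test, was 1 with quantile normalization and from 0 to 1 with a library left out. With the replicate block limma called 5 genes and limma-voom, as an alternative added after the data were seen, 12, and no member was among them. With GC correction and the replicate block together 0 genes were called. At an unadjusted p under 0.05 there were 373 with the block, 413 with GC correction and block, and 431 with limma-voom and block. The replicate numbers are not said to mark a shared source, and deviations of the same number correlated at 0.47 over 11625 genes. With the longest transcript as the length, also added after the data were seen, 4 members in place of 2 lay between the bands. Depth limits Foxp3 and Gpr83, at 13 reads or fewer per library.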

Other observations

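Some genes of the lists followed the replicate number of the libraries and not the genotype. Klrg1, an inhibitory receptor of effector and some regulatory T cells, was at 2.19 and 1.78 RPKM in wild-type 1 and OX40-knockout 1 and at 18 and 23.7 RPKM in wild-type 2 and OX40-knockout 2. Ncr1, encoding the NK receptor NKp46, was at 0.408 and 0.183 RPKM in the replicates numbered 1 and at 7.93 and 7.49 RPKM in those numbered 2. Pecam1 was at 30.8 and 44.2 RPKM against 76.5 and 112 RPKM in the same order. Of the 6 tested members, 4 (Ikzf4, Lrrc32, Izumo1r and Ebi3) were higher in both libraries numbered 1 than in both numbered 2, as were 18.7% of all genes tested.

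Tgfb3, a relative of Tgfb1, reached 23.5 RPKM in OX40-knockout 1, while elsewhere it lay between 5.76 and 7.12 RPKM. The chemokine receptor Ccr8 and the proenkephalin gene Penk, both known from regulatory T cells of tissues, were at 13.2 and 12.3 RPKM in OX40-knockout 1. In the other 3 libraries Ccr8 was between 2.11 and 3.95 RPKM and Penk between 2.82 and 3.45 RPKM. These genes were chosen after their values were seen.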
